A study of Mus musculus with 3 samples.

Results

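The signalling system described here is the vascular endothelial growth factor (VEGF) and angiopoietin system, taken as 10 genes: the ligands Vegfa, Vegfb, Vegfc, Angpt1 and Angpt2, the receptors Flt1, Kdr, Flt4 and Tek, and the co-receptor Nrp1. The genes were taken by name as parts of the pathway, a choice made with earlier results of these data known, and they are 10 of the 32285 features counted. All 10 had transcripts in each of the 3 libraries, with 1188 unique molecular identifiers (UMIs, each standing for 1 captured transcript) in all for Flt4 and 95259 for Nrp1 over the cells kept.

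VEGF-A drives vessel sprouting through the receptor kinase VEGFR2, the product of Kdr, while VEGFR1, the product of Flt1, binds the same ligand tightly and acts in large part as a decoy. VEGF-B binds VEGFR1, VEGF-C binds VEGFR3, the product of Flt4, and neuropilin-1 is a co-receptor for VEGF-A and class 3 semaphorins. Angiopoietin-1 from cells around the vessel activates the receptor Tie2, the product of Tek, and stabilises vessels, and angiopoietin-2 from endothelial cells mostly opposes it while vessels are remodelled. In muscle the capillary bed has to be rebuilt along with the fibres after injury.

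The cells came from the tibialis anterior muscle of C57/BL6J mice 4 days after an injection of barium chloride, a toxin that destroys the fibres. All groups were profiled by droplet single-cell RNA sequencing: young mice (3 to 4 months) given phosphate-buffered saline (young PBS), old mice (24 to 26 months) given saline (old PBS) and old mice given recombinant METRNL, a secreted cytokine of muscle and myeloid cells (old rMETRNL). Muscles of 3 mice were pooled into 1 library per group, so no library has a replicate, the spread between mice cannot be seen, and age or treatment cannot be told apart from the library. All intervals below are exact 95% intervals for counting error alone, no test between groups was possible, and animals within a pool cannot be separated.

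After filtering, 10323 cells of young PBS, 10021 of old PBS and 11479 of old rMETRNL were kept, with a median of 15100, 13698 and 14507 UMIs per cell. Between 75 and 98 kept cells per library carried a barcode that another library also held. Clusters, built without the 10 genes and the other genes of the pathway lists, were named from marker genes and are written "-like". Endothelial-like cells numbered 611 for young PBS, 880 for old PBS and 914 for old rMETRNL, fibro/adipogenic progenitor (FAP)-like cells 1639, 1366 and 1709, macrophage/monocyte-like cells 6337, 6153 and 6968, and pericyte/smooth muscle-like cells 86, 106 and 87. A level is the UMIs of a gene summed over a class in a library, per 1000000 UMIs of that class and library (CPM). The old/young ratio is the level in old PBS over that in young PBS and stands for age, and the rMETRNL/PBS ratio is the level in old rMETRNL over that in old PBS and stands for treatment. Where 3 levels follow each other, they are those of young PBS, old PBS and old rMETRNL in this order. A gene was counted as past 1.5-fold when its ratio lay beyond 1.5-fold in either direction, its interval left out 1, and it had at least 50 UMIs in the class over the 3 libraries.

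The receptors were read mainly in endothelial-like cells, and the ligands mainly outside them. Of all kept UMIs, endothelial-like cells held 80.4% of those of Flt1, 80.8% of Flt4, 69.2% of Kdr and 56.2% of Tek, but 1.09% of those of Vegfa, 1.84% of Vegfb and 0.16% of Angpt1. Macrophage/monocyte-like cells, the largest class, held 52.4% of the Vegfa UMIs and 67.0% of the Vegfb UMIs, and FAP-like cells 88.5% of the Angpt1 UMIs and 53.3% of the Vegfc UMIs. These shares depend on how many cells of each class were captured.

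**Figure D1:**
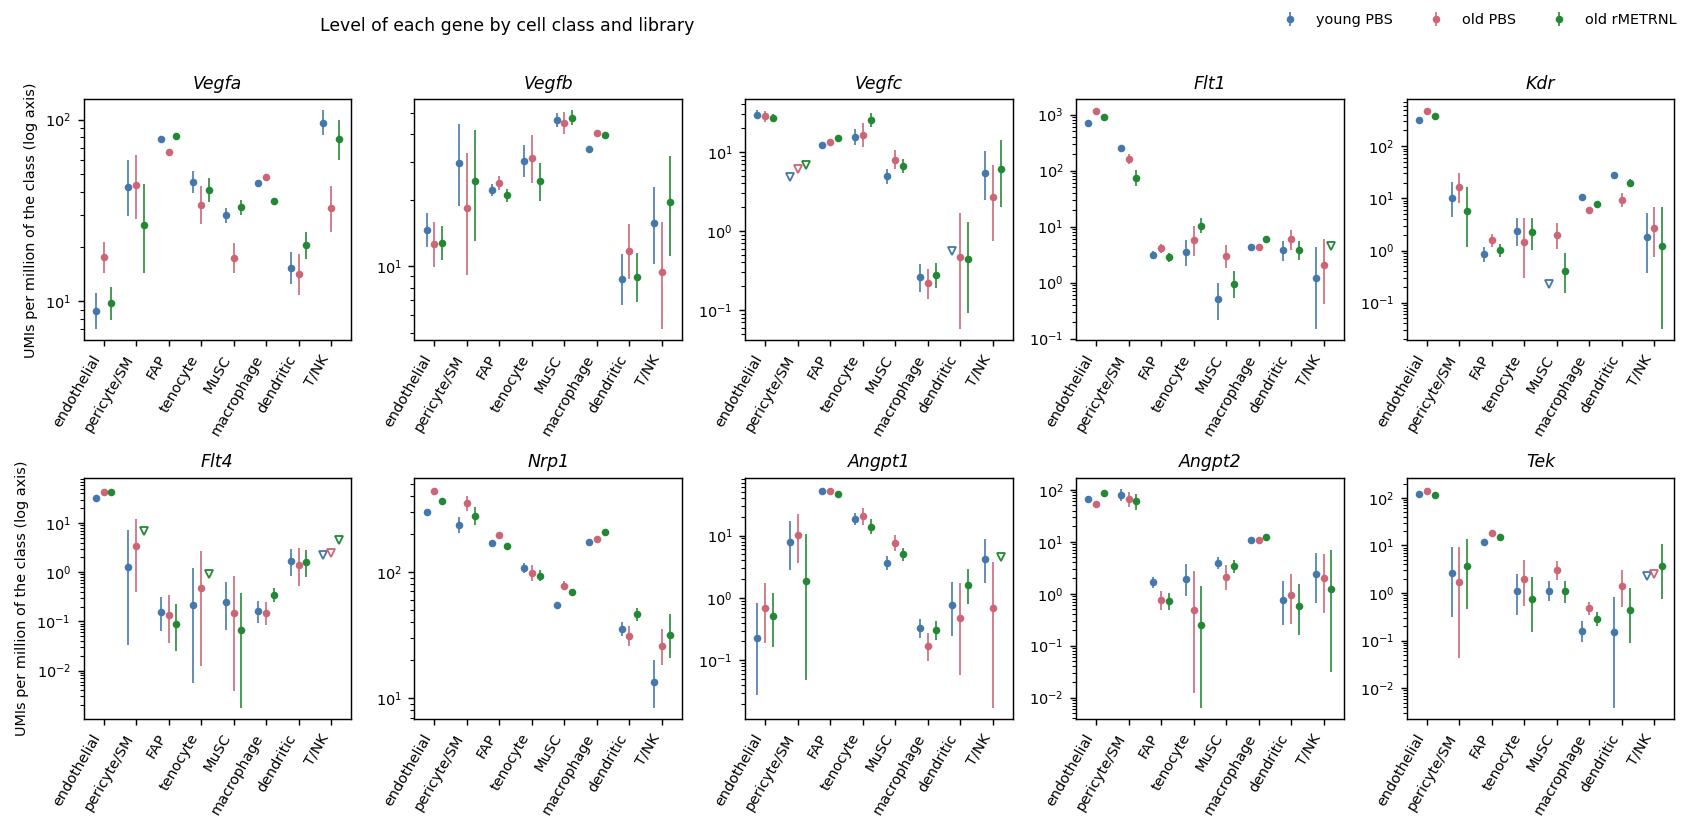
Level of each of the 10 genes (CPM, log axis) in 8 cell classes, with 1 point per library and bars for the exact 95% counting interval. Open triangles mark the upper end of that interval where no UMI was found; Flt1, Kdr, Flt4 and Tek have their highest points in endothelial-like cells in each library, and Angpt1 in FAP-like cells.

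The promoters of Flt1, Kdr and Nrp1 are shown because these had the highest old/young ratios among the receptor genes in endothelial-like cells. Each sequence is the 250 bases before the transcription start from RefSeq (build GRCm38.p6), read 5′ to 3′ on the gene's own strand, with the letters GGAA, the core read by ETS-family factors, and its reverse complement TTCC in capitals. The Flt1 window is chr5:147726012-147726261 on the minus strand, the Kdr window chr5:75978456-75978705 on the minus strand, and the Nrp1 window chr8:128358823-128359072 on the plus strand. The GENCODE position of Nrp1 given below starts at 128358604, so by that annotation this window lies inside the gene.
Flt1: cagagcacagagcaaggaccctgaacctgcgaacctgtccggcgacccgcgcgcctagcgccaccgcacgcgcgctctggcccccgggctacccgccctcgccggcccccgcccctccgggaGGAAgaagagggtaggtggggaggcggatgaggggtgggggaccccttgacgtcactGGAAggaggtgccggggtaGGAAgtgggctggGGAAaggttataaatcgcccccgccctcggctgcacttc
Kdr: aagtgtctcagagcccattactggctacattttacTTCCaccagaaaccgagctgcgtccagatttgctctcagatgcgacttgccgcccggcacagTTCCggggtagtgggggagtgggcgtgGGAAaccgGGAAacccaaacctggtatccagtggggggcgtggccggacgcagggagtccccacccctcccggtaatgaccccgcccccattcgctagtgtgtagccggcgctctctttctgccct
Nrp1: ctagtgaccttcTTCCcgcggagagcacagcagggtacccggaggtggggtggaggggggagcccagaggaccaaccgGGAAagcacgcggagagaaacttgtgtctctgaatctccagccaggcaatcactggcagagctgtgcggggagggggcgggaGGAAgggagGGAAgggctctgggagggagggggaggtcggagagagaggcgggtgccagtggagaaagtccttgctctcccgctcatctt
Each of the 3 windows holds 4 such motifs. At least 1 stands in 93.45% of the 32851 promoters of the same length, with a median of 3, so the motif is common and marks no difference of these genes from others. Promoters were matched for 8 of the 10 genes, and the other windows hold 1 to 6 motifs, Tek among them with 2.

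In endothelial-like cells, the receptors were read at higher levels in old PBS than in young PBS. Flt1 (chromosome 5, 147561604 to 147726011, minus strand, mm10) stood at 713 CPM (695 to 731) for young PBS, 1161 (1134 to 1189) for old PBS and 926 (907 to 946) for old rMETRNL. The intervals did not overlap, with old PBS highest and old rMETRNL between. The ratio of old PBS to young PBS was 1.63 (1.57 to 1.69), and that of old rMETRNL to old PBS 0.80 (0.77 to 0.82). These 3′ counts do not separate the membrane form of VEGFR1 from its soluble form.

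Kdr (chromosome 5, 75932827 to 75978458, minus strand) followed the same order in these cells, at 319 CPM for young PBS, 466 for old PBS and 380 for old rMETRNL, with intervals that did not overlap. Its ratio was 1.46 (1.39 to 1.54) for age and 0.815 (0.776 to 0.857) for treatment, so neither was past 1.5-fold. Nrp1 (chromosome 8, 128358604 to 128503363, plus strand) stood at 295, 433 and 367 CPM in the same libraries. Its old/young ratio of 1.47 (1.39 to 1.55) lay next to that of Kdr. Flt4, best known from lymphatic endothelium (chromosome 11, 49609263 to 49652739, plus strand), was at 31.6 CPM for young PBS, 43.0 for old PBS and 43.8 for old rMETRNL. Here the library of treated old mice did not stand between the others. No sub-cluster passed the marker criteria for lymphatic endothelium.

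Tek (chromosome 4, 94739289 to 94874976, plus strand) had the smallest old/young ratio among the receptors in endothelial-like cells. Its levels were 121 CPM for young PBS, 142 for old PBS and 118 for old rMETRNL, the old/young ratio was 1.17 (1.07 to 1.28) and the rMETRNL/PBS ratio 0.83 (0.76 to 0.91).

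Of 9 genes with enough UMIs in endothelial-like cells, 2 were past 1.5-fold for age, Flt1 and Vegfa, both higher in old PBS, against 15.1% of all genes tested in the class. For treatment 2 of 9 were past it, Vegfa lower and Angpt2 higher in old rMETRNL, against 10.4% of all genes tested. The median log2 ratio of the 9 genes was 0.44 for age and -0.24 for treatment, beside -0.05 and 0.05 over all genes tested. Counts of 2 in 9 lie near this background. Angpt1 had 11 UMIs in these cells over the 3 libraries and was not tested.

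**Figure D2:**
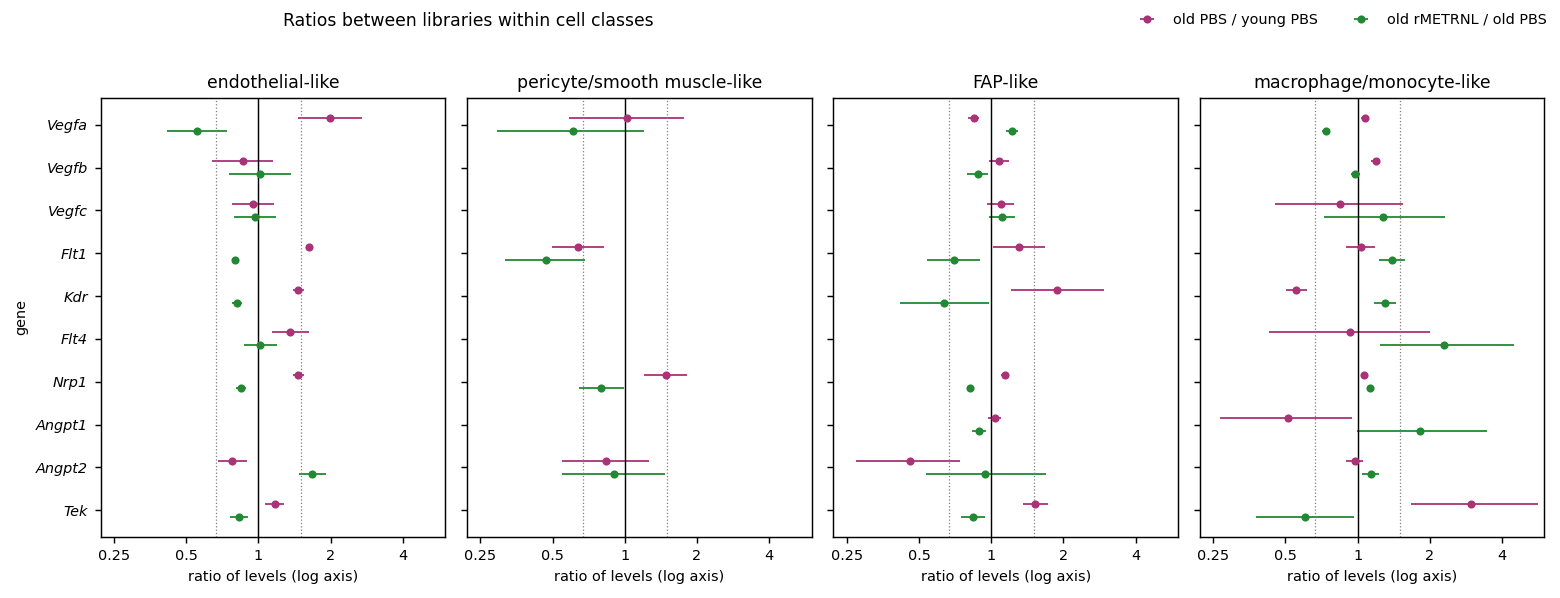
Ratio of each gene's level between libraries (log axis) in 4 cell classes, old PBS over young PBS and old rMETRNL over old PBS, with exact 95% counting intervals; genes with under 50 UMIs in a class are left out. The solid line marks 1 and the dotted lines 1.5-fold in each direction; in endothelial-like cells Flt1, Kdr and Nrp1 lie to the right of 1 for age and to the left for treatment.

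The mix of endothelial-like cells differed between the 3 libraries. With 1 library per group, its part in the ratios above was not tested. Sub-clustering gave 11 groups. By the naming conditions 2 of them, 102 cells led by Myh11 and Notch3 and 42 cells led by Cd74, were taken out of the class and left unnamed. The other 9 are named by their leading genes, and 1 of these, the 141 cells led by Spp1, Lgals1 and Col3a1, is also led by genes of other cell types but passed those conditions. Venous-like cells led by Ackr1 and Selp made up 23.6% of the class for young PBS, 12.05% for old PBS and 17.3% for old rMETRNL. Cells led by Apln, Pgf and Prnd, genes of sprouting endothelium, made up 23.7%, 5.11% and 14.6%. Capillary-like cells led by the interferon gene Ifit1 made up 4.09%, 19.3% and 13.2%, and capillary-like cells led by the immediate early genes Ccn1 and Fos 7.20%, 18.1% and 13.35%. The cells led by Apln, called sprouting-gene cells below, had a median of 14462 UMIs and the Ifit1 cells 2842, and the median of the whole class was 10792 UMIs per cell for young PBS, 3637 for old PBS and 6358 for old rMETRNL.

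Flt1 had its highest level in the capillary-like groups. In the Ifit1 cells it stood at 2208 CPM for young PBS, 2198 for old PBS and 2447 for old rMETRNL, with an old/young ratio of 0.995 (0.86 to 1.16). In the sprouting-gene cells it stood at 482, 528 and 474, with an old/young ratio of 1.10 (0.97 to 1.23). Within each of these groups the young and old PBS libraries did not differ beyond their intervals, while the levels of the groups lay far apart. Higher Flt1 in old PBS was still read in 6 of the 9 groups with an interval above 1. The highest old/young ratio, 3.54 (1.865 to 7.395), was in the Spp1, Lgals1 and Col3a1 cells, from 11 and 73 UMIs, and the next, 1.77 (1.415 to 2.23), in the Txnip cells, at 894, 1579 and 1570. Among the 6 were also the arterial-like cells led by Gkn3, at 993 for young PBS, 1476 for old PBS and 1365 for old rMETRNL (old/young ratio 1.49, 1.31 to 1.68). The rMETRNL/PBS ratio of Flt1 was mixed, above 1 by its interval in 3 of the 9 groups and below 1 in 2, beside 0.80 over the class.

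Kdr stood at 840, 851 and 875 CPM in the Ifit1 cells and at 315, 301 and 306 in the sprouting-gene cells. Neither group differed between libraries beyond its interval. Its old/young ratio left out 1 in 2 of 9 groups, which were the Txnip cells (median 1756 UMIs per cell; 546 in young PBS, 1273 in old PBS) and the cells led by Spp1, Lgals1 and Col3a1 (median 1465 UMIs). The leading genes of the latter group are those of macrophages and fibroblasts. For Nrp1, the old/young ratio was above 1 in 3 of 8 groups and below 1 in 1, the venous-like cells, where it was at 236 in young PBS and 183 in old PBS (0.78, 0.66 to 0.91).

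**Figure D3:**
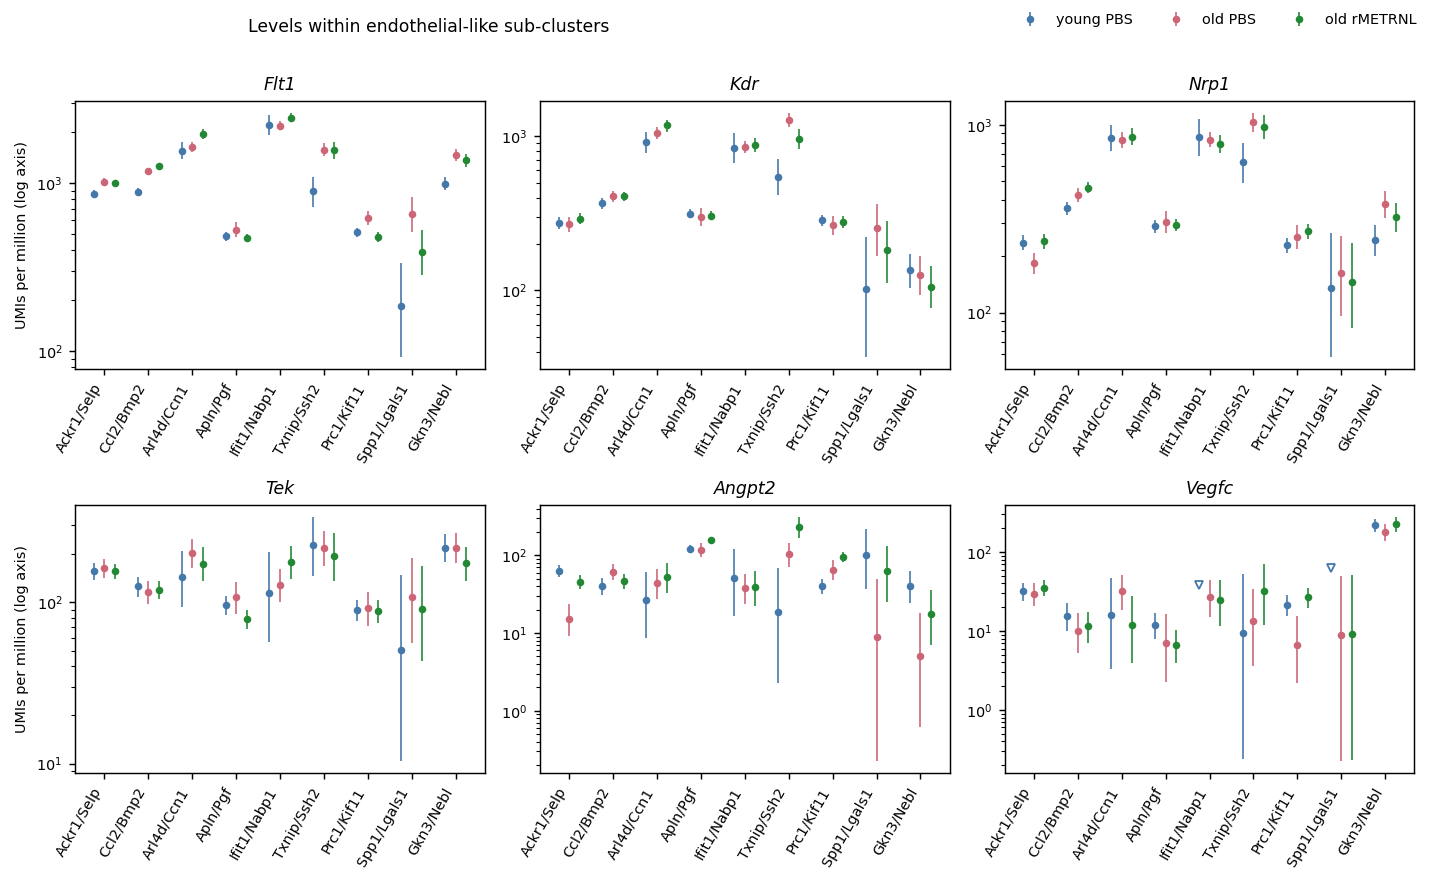
Levels of 6 genes (CPM, log axis) in the 9 endothelial-like sub-clusters, named by their leading genes, with 1 point per library, exact 95% counting intervals and open triangles for the upper limit where no UMI was found. In old PBS, Flt1 ranges from 528 in the Apln cells to 2198 in the Ifit1 cells, and Vegfc is highest in the arterial-like cells led by Gkn3.

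With the sub-cluster mix held the same in each library, a setting chosen after seeing these shares, the old/young ratio in endothelial-like cells was 1.21 for Flt1, 1.07 for Kdr, 1.07 for Nrp1, 1.05 for Tek and 1.25 for Flt4. The rMETRNL/PBS ratio was 0.99 for Flt1, 1.015 for Kdr, 1.04 for Nrp1, 0.92 for Tek and 1.08 for Flt4. None of the 9 genes was then past 1.5-fold in either contrast. Other settings moved the old/young ratios of the receptors further from 1. With the mean of per-cell levels they were 1.80 for Kdr, 1.675 for Nrp1 and 1.86 for Flt4. With median-of-ratios scaling they were 1.69 for Flt1 and 1.21 for Tek. The size of these ratios thus depended on the setting.

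**Figure D4:**
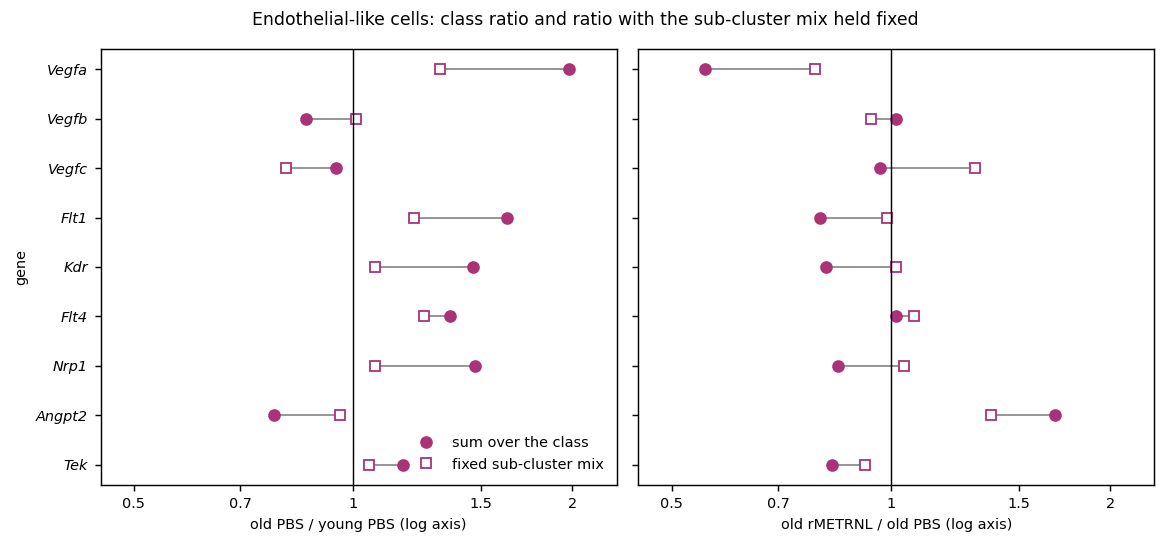
Ratio of each gene's level in endothelial-like cells (log axis) for age and for treatment, as the sum over the class (filled circles) and with the sub-cluster mix held fixed (open squares). For Flt1, Kdr and Nrp1 the squares lie closer to 1 than the circles in both contrasts; for Vegfc they lie further away.

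The share of cells with a transcript gave the same order for Flt1 after each cell was thinned to 2000 UMIs, which left out 41, 210 and 190 shallower cells. A Flt1 UMI was found in 72.1%, 86.1% and 78.0% of the thinned endothelial-like cells of young PBS, old PBS and old rMETRNL, and without thinning in 92.3%, 94.55% and 92.0%. In T/NK-like cells, which should lack it, the thinned share was at most 0.565%. For Kdr the thinned shares were 47.9%, 56.9% and 55.0%, while the unthinned shares ran in another order, 84.9%, 78.9% and 80.1%.

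Markers of some other cell types, but not of all, were also more frequent in the old PBS endothelial-like cells. The 12 macrophage markers summed to 267 CPM for young PBS, 536 for old PBS and 380 for old rMETRNL, with none at 0, and the 8 markers of mature fibres to 24.7, 263 and 64.35, with 1 at 0 in young PBS. The 12 FAP markers summed to 225, 371 and 210 and the 11 pericyte/smooth muscle markers to 486, 737 and 636.5, again highest in old PBS. The 6 erythroid markers summed to 26.3, 197 and 43.7, and the tenocyte, MuSC/myoblast, myocyte and glial markers, each at most 37.1 in any library, were also highest in old PBS. The 10 dendritic markers, at 245, 214 and 256, the 11 T/NK markers, at 11.4, 8.20 and 2.44, and the 7 B cell markers, at 11.4, 6.83 and 5.19, were lower in old PBS than in young PBS. Of 12 genes known to respond to tissue dissociation, 2 were past 1.5-fold higher in old PBS (Egr1 at a ratio of 2.03 and Fosb at 1.78) and none lower, against 15.1% of all genes tested in the class. Without that threshold, all 12 were higher in old PBS by their intervals (1.11 to 2.03). The median log2 ratio of the list was 0.37 for age and -0.23 for treatment. Flt1, Kdr, Nrp1 and Tek shared both signs, while Flt4 shared that for age only (treatment 1.02, 0.87 to 1.19). The part of these markers and dissociation genes in the receptor ratios was not tested.

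Angpt2 (chromosome 8, 18690263 to 18741562, minus strand) had the highest rMETRNL/PBS ratio of the 9 genes tested in endothelial-like cells. It stood at 67.9 CPM (62.5 to 73.5) for young PBS, 52.8 (47.0 to 59.0) for old PBS and 88.6 (82.8 to 94.7) for old rMETRNL. The treated library was highest and old PBS lowest, with no overlap of intervals. The ratios were 0.78 (0.68 to 0.89) for age, 1.68 (1.47 to 1.92) for treatment and 1.31 (1.18 to 1.45) for old rMETRNL over young PBS, 3 ratios that share the same 3 libraries. With the sub-cluster mix held fixed the rMETRNL/PBS ratio was 1.37 and that for age 0.96, and under a stricter cell filter the old/young ratio turned to 1.05. The share of thinned endothelial-like cells with an Angpt2 UMI was 8.77% (6.58 to 11.4), 8.51% (6.51 to 10.9) and 9.945% (7.86 to 12.4), with overlapping intervals, so the libraries did not stand apart on this measure.

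Within groups, the rMETRNL/PBS ratio of Angpt2 left out 1 in 4 of the 5 sub-clusters with enough UMIs, each time with old rMETRNL higher. In venous-like cells Angpt2 was at 63.4 CPM for young PBS, 15.4 for old PBS and 45.5 for old rMETRNL, an old/young ratio of 0.24 (0.14 to 0.40) and an rMETRNL/PBS ratio of 2.95 (1.79 to 5.13). In the sprouting-gene cells, where it was higher, the levels were 122, 119 and 157. The cycling cells led by Prc1 and Kif11 gave 40.5, 65.3 and 96.35, and the shallow Txnip cells 18.8, 103 and 230. The Txnip group held only 25, 127 and 74 cells, with a median of 1756 UMIs per cell. The group without a treatment difference, the Ccl2 and Bmp2 cells, had 40.5, 61.6 and 46.75. For age, venous-like cells were lower in old PBS, while the cycling, Txnip and Ccl2 groups were higher by their intervals. The ratios were 1.61 in cycling and 1.52 in Ccl2 cells. In Txnip cells the ratio was 5.48, over a young PBS level read from 25 shallow cells.

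Outside the endothelium, Angpt2 stood at 80.0, 66.8 and 60.1 CPM in pericyte/smooth muscle-like cells, from 62, 40 and 32 UMIs, and these intervals overlapped with one another. Macrophage/monocyte-like cells had it at 11.02, 10.7 and 12.1. Because that class is large, it held 60.1% of all Angpt2 UMIs and endothelial-like cells 30.1%. Among macrophage/monocyte-like sub-clusters, those led by Rnf128 and Htr2b (27.1, 18.25 and 26.3) and by F10 and Mmp12 (23.8, 11.9 and 20.6) were lower in old PBS than in either other library. Over the 8 sub-clusters with enough UMIs the direction was mixed, with 4 lower and 2 higher for age by their intervals and 2 higher and 1 lower for treatment. In FAP-like cells Angpt2 was at 1.67, 0.76 and 0.72 CPM, an old/young ratio of 0.46 (0.27 to 0.74) that rests on 75 and 23 UMIs. The 11 pericyte/smooth muscle markers summed to 573, 337 and 434 CPM in FAP-like cells, none at 0 and highest in young PBS as Angpt2 was, and their part in this ratio was not tested.

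Angpt1, the Tie2 agonist (chromosome 15, 42424723 to 42676977, minus strand), was read mainly in FAP-like cells. In FAP-like cells it stood at 50.9 CPM (48.8 to 53.0) for young PBS, 52.55 for old PBS and 46.7 (44.7 to 48.7) for old rMETRNL. Young and old PBS did not differ beyond their intervals (1.03, 0.97 to 1.10), and the rMETRNL/PBS ratio was 0.89 (0.83 to 0.95). In tenocyte-like cells it was at 18.7, 20.5 and 13.9, and in pericyte/smooth muscle-like cells it had 13 UMIs in all. After thinning, 9.83%, 8.54% and 9.33% of FAP-like cells had an Angpt1 UMI, against 0 of 570, 2 of 670 and 1 of 724 endothelial-like cells. The exact interval of the 0 of 570 allows a share of up to 0.645%.

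Tek was not confined to endothelium. In FAP-like cells it stood at 11.7 CPM (10.7 to 12.8) for young PBS, 17.9 (16.4 to 19.4) for old PBS and 15.0 (13.8 to 16.1) for old rMETRNL, an old/young ratio of 1.53 (1.35 to 1.72). The sub-cluster led by Dmkn, Krtdap and Efhd1, whose next leading gene Pi16 marks adventitial fibroblasts, held most of it, at 86.7, 96.1 and 75.6, while the largest sub-cluster had 4.23, 2.65 and 3.49. The Dmkn group was 8.18% of FAP-like cells for young PBS, 11.9% for old PBS and 14.45% for old rMETRNL. With the FAP-like mix held fixed the old/young ratio of Tek was 1.16. The 13 endothelial markers summed to 65.65, 64.1 and 60.9 CPM in FAP-like cells, none of them at 0, and their part in the Tek levels was not tested.

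Vegfa (chromosome 17, 46016993 to 46032369, minus strand) was spread over many classes. In FAP-like cells it stood at 78.6 CPM (76.1 to 81.3) for young PBS, 66.3 (63.5 to 69.3) for old PBS and 81.0 (78.3 to 83.7) for old rMETRNL, with old PBS below the other libraries. The ratios were 0.84 (0.80 to 0.89) for age and 1.22 (1.16 to 1.29) for treatment, both short of 1.5-fold. Myoblast-like cells (MuSC/myoblast-like) had the same shape and a larger difference, at 29.7, 17.4 and 32.9, an old/young ratio of 0.59 (0.47 to 0.72) and an rMETRNL/PBS ratio of 1.89 (1.54 to 2.33). T/NK-like cells did too, at 96.3, 32.5 and 78.3, from 159, 48 and 64 UMIs. After thinning, 3.39% (1.91 to 5.54), 2.90% (1.07 to 6.20) and 5.13% (3.24 to 7.66) of MuSC/myoblast-like cells had a Vegfa UMI. These intervals overlapped, so the libraries did not stand apart on this measure. The MuSC/myoblast-like class was not sub-clustered.

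Among FAP-like sub-clusters, the Il11 and Inhba cells had Vegfa at 124, 87.9 and 130 CPM, so that old PBS was lower than either other library. The Chl1 and Il6 cells had 127, 70.0 and 72.2, so that the treated library stayed with old PBS. In the C7 and Clu cells the order was turned, at 60.2, 115 and 93.1, with an old/young ratio of 1.90 (1.43 to 2.56). The old/young ratio of Vegfa was below 1 in 3 of 9 sub-clusters and above 1 in 1, by their intervals.

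In macrophage/monocyte-like cells Vegfa was at 44.7 CPM (43.4 to 46.0) for young PBS, 48.1 (46.7 to 49.4) for old PBS and 35.5 (34.4 to 36.6) for old rMETRNL. Old PBS was highest here, with an old/young ratio of 1.075 (1.03 to 1.12), and the treated library lowest, with an rMETRNL/PBS ratio of 0.74 (0.71 to 0.77). Within sub-clusters the age difference ran the other way: of 11 with enough UMIs, 6 were lower in old PBS by their intervals and 1 higher, and with the mix held fixed the old/young ratio was 0.79 and the rMETRNL/PBS ratio 0.91. The F10 and Mmp12 cells, among the richest in Vegfa, had 113, 112 and 109, no difference beyond the intervals, and made up 5.74%, 10.04% and 7.09% of the class. The Rnf128 and Htr2b cells had 74.5, 48.8 and 43.3, and the Mgl2 and Hbegf cells 42.6, 20.2 and 28.1. The cells led by Gm26917, Hes1 and Ciita, with 2.95, 3.40 and 4.27, were 17.2%, 6.57% and 9.23% of the class.

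**Figure D5:**
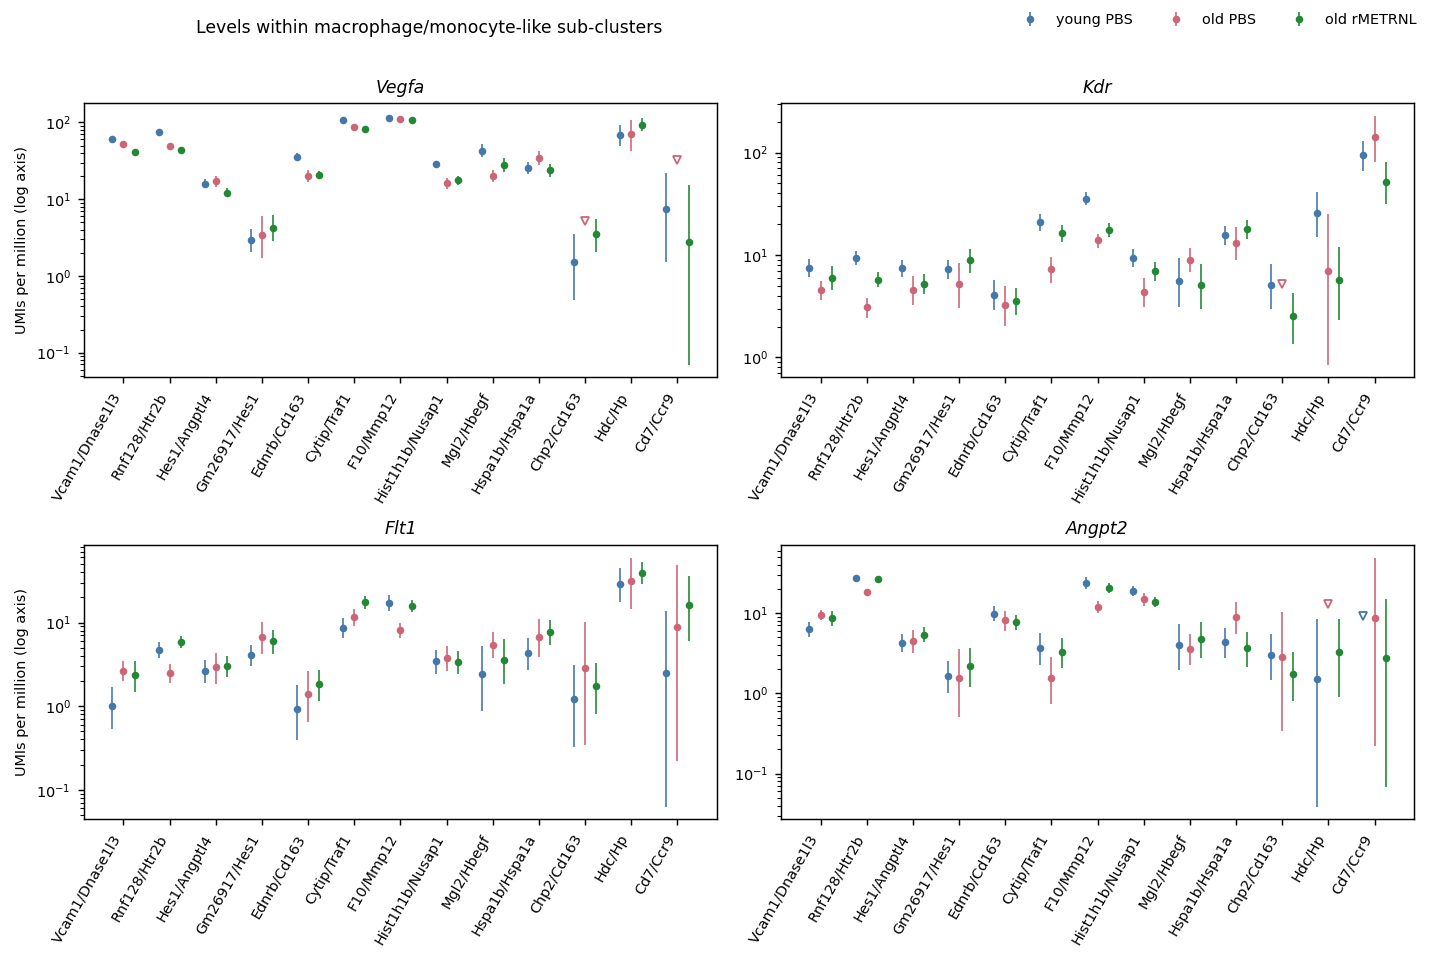
Levels of Vegfa, Kdr, Flt1 and Angpt2 (CPM, log axis) in the 13 macrophage/monocyte-like sub-clusters, named by their leading genes, with 1 point per library, exact 95% counting intervals and open triangles for the upper limit where no UMI was found. In young PBS Vegfa ranges from 1.51 in the Chp2 cells to 113 in the F10 cells, and Kdr is lower in old PBS than in young PBS by its interval in 6 of the 11 with enough UMIs.

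Endothelial-like cells had little Vegfa, 8.88 CPM for young PBS, 17.6 for old PBS and 9.78 for old rMETRNL, from 78, 103 and 96 UMIs. The old/young ratio was 1.98 (1.46 to 2.69) and the rMETRNL/PBS ratio 0.56 (0.42 to 0.74). The arterial-like cells had the highest level, at 72.6, 88.6 and 50.4, with overlapping intervals, and with the mix held fixed the old/young ratio was 1.315 and the rMETRNL/PBS ratio 0.79. The macrophage markers given above moved in the same order, old PBS highest, and their part in this result was not tested.

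Vegfb (chromosome 19, 6982473 to 6987651, minus strand), whose product is tied to fatty acid handling in muscle, was densest in mature fibre-like cells, at 207 CPM (139 to 298) for young PBS, 156 (137 to 177) for old PBS and 160 (126 to 202) for old rMETRNL. These rest on 29, 243 and 73 UMIs, and the intervals overlap. In MuSC/myoblast-like cells it was at 46.4, 45.0 and 47.6, again with no difference beyond the intervals. Macrophage/monocyte-like cells had 34.2, 40.6 and 39.6, an old/young ratio of 1.19 (1.14 to 1.24), and 4 of 11 sub-clusters were higher in old PBS by their intervals and none lower. In endothelial-like cells Vegfb stood at 14.7, 12.6 and 12.8 with overlapping intervals.

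Vegfc (chromosome 8, 54077606 to 54187096, plus strand) had its highest level in endothelial-like cells, at 29.7 CPM for young PBS, 28.2 for old PBS and 27.2 for old rMETRNL, and the intervals of the 3 libraries overlapped. The highest level was in the arterial-like cells led by Gkn3, with 218 (178 to 265), 177 (138 to 224) and 224 (180 to 276), while the sprouting-gene cells had 11.9, 7.055 and 6.57. FAP-like cells had 12.3, 13.4 and 14.9, and tenocyte-like cells 15.7, 16.6 and 25.4, where the treated library was above old PBS (1.53, 1.03 to 2.33). No Vegfc UMI was found in pericyte/smooth muscle-like cells of any library, and the exact intervals of these counts of 0 end at 4.76, 6.16 and 6.93 CPM in young PBS, old PBS and old rMETRNL. Macrophage/monocyte-like cells had 0.262, 0.22 and 0.281.

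Kdr and Flt1 were also read in myeloid classes, at low levels. In macrophage/monocyte-like cells Kdr stood at 10.8 CPM (10.1 to 11.4) for young PBS, 5.96 (5.49 to 6.46) for old PBS and 7.75 (7.25 to 8.28) for old rMETRNL, an old/young ratio of 0.55 (0.50 to 0.61) and an rMETRNL/PBS ratio of 1.299 (1.17 to 1.44). The direction with age was opposite to that in endothelial-like cells. Of 11 sub-clusters with enough UMIs, 6 were lower in old PBS by their intervals and none higher, among them the F10 and Mmp12 cells (35.4, 13.9 and 17.55) and the Cytip and Ly6c2 cells (20.9, 7.23 and 16.35). For treatment the direction was mixed, with 4 higher in old rMETRNL by their intervals and 2 lower. Dendritic-like cells gave 28.0, 9.44 and 19.6, an old/young ratio of 0.34 (0.23 to 0.48) and an rMETRNL/PBS ratio of 2.08 (1.45 to 3.04).

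The highest Kdr level among the macrophage/monocyte-like sub-clusters, 93.85, 140 and 51.7, was in a group of 42, 13 and 39 cells led by Cd7, Ccr9 and Siglech, genes of plasmacytoid dendritic cells which go against the class name. Without this group the old/young ratio of Kdr in the class was 0.56. After thinning, 2.19%, 1.41% and 1.77% of macrophage/monocyte-like cells had a Kdr UMI, against 0.0611%, 0.594% and 0.416% of FAP-like cells and 0.495%, 1.13% and 0.901% of the shallower T/NK-like cells, which should lack it. The T/NK-like shares rest on 1 or 2 cells each. The median depths were 14048, 14629 and 14291 UMIs in macrophage/monocyte-like cells and 25930, 21699.5 and 24612 in FAP-like cells. Without thinning the shares were 10.6%, 6.68% and 8.42%. The 13 endothelial markers summed to 19.05, 25.7 and 21.8 CPM in macrophage/monocyte-like cells. Some other marker sums ran in the order of Kdr, highest in young PBS and lowest in old PBS. They were the 6 erythroid markers at 277, 51.6 and 180, the 7 B cell markers at 160, 101.5 and 125, and the 6 mast cell markers at 35.96, 3.57 and 11.5. Others did not: the 8 mature fibre markers, at 60.3, 142 and 80.1, were highest in old PBS. The 7 neutrophil markers, at 71.7, 87.5 and 97.6, and the 12 FAP markers, at 155, 167 and 170, were lowest in young PBS. Of the 12 dissociation genes, 4 were past 1.5-fold lower in old PBS than in young PBS in this class, against 11.4% of all genes tested, and 3 higher in old rMETRNL than in old PBS, against 8.0%. The part of these markers and genes in the Kdr ratios was not tested.

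Flt1 in macrophage/monocyte-like cells was at 4.24, 4.37 and 6.07 CPM, with an rMETRNL/PBS ratio of 1.39 (1.23 to 1.57). The cells led by Hdc, Hp and Vcan had 29.0, 31.4 and 39.5, with overlapping intervals, and the F10 and Mmp12 cells 17.2, 8.18 and 15.9, lowest in old PBS. Nrp1, in contrast, was abundant, at 173 (170 to 175), 183 (180 to 185) and 205 (203 to 208), so that each library stood apart from the others with an old/young ratio of 1.06 and an rMETRNL/PBS ratio of 1.12. The cells led by Chp2 and Cd163 (293, 375 and 359) and by Ednrb and Cd163 (264, 295 and 293) were among the richest in Nrp1, and the Cytip and Ly6c2 cells (79.8, 72.1 and 108) among the poorest. In FAP-like cells Nrp1 was at 170, 194 and 159, and old rMETRNL was below old PBS by its interval in 6 of 9 sub-clusters.

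In macrophage/monocyte-like cells 3 of 10 genes were past 1.5-fold for age (Kdr and Angpt1 lower, Tek higher in old PBS), against 11.4% of all genes tested. For treatment 2 of 10 were past it (Flt4 higher, Tek lower), against 8.0%. Other than Kdr, these rest on Angpt1, Flt4 and Tek at 0.15 to 0.48 CPM, from 15 to 48 UMIs per library in a class of 6153 to 6968 cells, a level at which the thinned shares were at most 0.133%. In FAP-like cells 3 of 9 were past 1.5-fold for age (Kdr and Tek higher, Angpt2 lower), against 12.6%, and 1 of 9 for treatment (Kdr lower), against 8.72%. Kdr in FAP-like cells rests on 38, 48 and 45 UMIs, and its thinned shares given above do not exceed those of T/NK-like cells by more than their counting intervals.

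Pericyte/smooth muscle-like cells were few and gave a different picture for Flt1. It stood at 250 CPM (216 to 288) for young PBS, 160 (130 to 196) for old PBS and 75.2 (53.7 to 102) for old rMETRNL, from 194, 96 and 40 UMIs, highest in young PBS and lowest in old rMETRNL, with no overlap. The ratios were 0.64 (0.50 to 0.82) for age and 0.47 (0.32 to 0.68) for treatment. The 5 cells with the most Flt1 held 68, 47 and 17 of these UMIs, so the counting intervals understate the spread between cells. After thinning, 28.4% (18.5 to 40.05), 16.7% (9.18 to 26.8) and 19.35% (10.4 to 31.4) of the cells had a Flt1 UMI. These intervals overlapped, and old rMETRNL was not lowest on this measure. Flt1 was the only gene of the 4 tested in this class that was past 1.5-fold, in each contrast 1 of 4, against 20.7% of all genes tested for age and 9.78% for treatment. In cells with no UMI of Cdh5 or Pecam1, the endothelial junction genes, the levels were 236, 154 and 60.5. At a finer clustering the Flt1 old/young ratio was 1.14 and the rMETRNL/PBS ratio 1.06, and in cells picked by Rgs5 and Notch3 UMIs the old/young ratio was 1.07, so the direction depends on which cells are counted as pericytes. The class also held 12 FAP markers that summed to 4755, 2461 and 2812 CPM with 2 or 3 at 0, and 12 macrophage markers that summed to 1368, 1560 and 2428, with at most 1 at 0. Of the 12 dissociation genes, 7 were past 1.5-fold higher in old PBS than in young PBS and none lower. The part of these genes in the result was not tested. Nrp1 in these cells was at 236, 349 and 278, with an old/young ratio of 1.48 (1.21 to 1.81).

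The other genes of the pathway in endothelial-like cells were read from lists, whose counts stand against 15.1% of all genes tested in the class for age and 10.4% for treatment. Among 3 other ligands, Pgf, placental growth factor, which binds VEGFR1, was the only one tested. It stood at 299 CPM for young PBS, 219 for old PBS and 369 for old rMETRNL. Its ratio was 0.73 (0.68 to 0.78) for age and 1.69 (1.58 to 1.80) for treatment. Pgf is a leading gene of the sprouting-gene cells, which made up 23.7%, 5.11% and 14.6% of the class. The part of these shares in the Pgf ratios was not tested. Of 5 other receptors and partners, 4 were tested and none was past 1.5-fold in either contrast: the Tie2 phosphatase Ptprb stood at 556.5, 736 and 592, the orphan receptor Tie1 at 321, 290 and 288, and Nrp2 at 298, 306 and 294.5. Of 7 class 3 semaphorins 3 were tested; none was past 1.5-fold for age, and Sema3a was higher for treatment (2.28, 2.56 and 5.60, from 90 UMIs in all). The 2 with the most UMIs were Sema3f (90.6, 94.8 and 104) and Sema3g (60.6, 51.4 and 49.5).

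Of 10 genes of tip cells, which lead a sprout, all were tested, and 1 was past 1.5-fold lower for age and 2 higher for treatment. The 3 with the most UMIs were the basement membrane gene Col4a2 (1473, 1150 and 1526), Cd34 (637, 540 and 617) and the pericyte-recruiting Pdgfb (153, 105 and 147). The gene lower with age was Apln, at 91.9, 49.4 and 139, which was also past 1.5-fold higher for treatment, along with Esm1 at 5.81, 4.10 and 10.1. The median log2 ratio of the list was -0.28 for age and 0.35 for treatment, beside -0.05 and 0.05 over all genes tested. The sprouting-gene cells, of which Apln is a leading gene, had their smallest share of the class in old PBS and their largest in young PBS, as given above.

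Of 7 genes known to respond to VEGF, 2 were past 1.5-fold higher in old PBS and none lower, and 1 was lower in old rMETRNL, so that each count in a list this short rests on 1 or 2 genes (15.1% and 10.4% over all genes tested). Akap12, Rcan1 and Nr4a1 had the most UMIs, at 355, 525 and 509, at 248, 365 and 316, and at 106, 127 and 117. The 2 past the threshold for age were Egr3 (32.8, 81.6 and 47.55) and Nr4a2 (89.95, 137.5 and 97.1). These are immediate early genes, as are Egr1 and Fosb above, which were also past 1.5-fold higher in old PBS. Of 6 genes of shear stress and quiescence, Klf4 (246, 446 and 306) and Thbd (120, 193 and 160) were past 1.5-fold higher in old PBS and none for treatment, while Klf2 (465, 512 and 414) and S1pr1 (341, 335 and 373) were not.

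Hypoxia-response genes, of which Vegfa is itself a classical member, were also read by list. In endothelial-like cells 3 of 9 tested were past 1.5-fold lower for age and 3 higher for treatment, and in both cases these were the glycolytic enzyme Pgk1 (209, 137 and 225), the HIF hydroxylase Egln3 (12.75, 4.44 and 14.4) and Ankrd37 (34.95, 10.1 and 34.0). Ldha, Epas1 and Hif1a had the most UMIs, at 443, 391 and 489, at 352, 519 and 363, and at 295, 267 and 284. In FAP-like cells 5 of 10 were lower and 2 higher for age, against 12.6% of all genes tested, and 3 higher for treatment, against 8.72%. There Ldha was at 442, 330 and 519, Hif1a at 277, 293 and 287, and Pgk1 at 229, 118 and 247. The mix of FAP-like cells also differed, with the Il11 and Inhba cells at 22.7%, 13.1% and 18.2% of the class. The 8 mature fibre markers summed to 19.0, 117 and 42.3 CPM in FAP-like cells. The part of either in these counts was not tested. In macrophage/monocyte-like cells 2 of 10 were lower and 1 higher for age, against 11.4%, and 2 higher for treatment, against 8.0%, with Ldha at 396, 356.5 and 427. Ankrd37 was past 1.5-fold lower in old PBS in each of these 3 classes, with ratios of 0.29 in endothelial-like, 0.38 in FAP-like and 0.30 in macrophage/monocyte-like cells. The median log2 ratio of the list for age was -0.18, -0.62 and -0.27 in the same classes, beside -0.05, -0.04 and -0.01 over all genes tested, and for treatment it was 0.32, 0.38 and 0.31, beside 0.05, 0.01 and 0.05.

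Over 21 points (7 classes with at least 100 cells per library, times 3 libraries), the genes whose log2 levels ran most like those of Flt1 were Cdh5, Tmem252 and Adgrf5, with Pearson's r from 0.973 to 0.984. For Kdr they were Vwf, Gnai2 and Cd300lg (0.957 to 0.969), for Flt4 Nos3, Dll4 and Stap2 (0.979 to 0.988), and for Tek Ackr1, Cldn15 and Tmx3 (0.966 to 0.9697). For Angpt1 they were Sox5, Col5a1 and Ror1 (0.964 to 0.976), and for Vegfa, whose levels followed no class closely, Meis3, Agpat2 and Smim4 (0.837 to 0.867). For Vegfb they were Man2a2, Wfs1 and Bhlhe41 (0.913 to 0.954), for Vegfc Cuedc1, Dab2ip and Spry1 (0.964 to 0.973), and for Angpt2 Scarf1, Chp2 and Arhgef7 (0.9425 to 0.946). The points of a library share its depth and those of a class its cells, so these values describe likeness across classes.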

How the data were processed

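The libraries were made with the 10x Genomics droplet kit. The authors aligned the reads and counted UMIs with Cell Ranger; the submitters' processing notes name versions 3.1.0 and 5.0.0 and the mm10 build, and the matrices deposited hold raw UMI counts per gene and barcode. Barcodes below 500 genes or at 10% or more mitochondrial UMIs were left out. Scrublet, run through scanpy 1.11.5, set a threshold that marked no doublet, so the barcodes with the highest scores were removed instead, at 0.8% per 1000 barcodes. The counts of the remaining cells were scaled to 10000 per cell and logged, and 2000 variable genes, 30 principal components and 20 neighbours gave Leiden clusters (leidenalg 0.10.2, resolution 0.8). Clusters were named from marker lists with at least 3 detected markers, and more for longer lists. Among these, the list with the highest mean log fold over its best markers was taken. A cluster stayed unnamed when its leading genes held more markers of another list. It also stayed unnamed when it was shallow and its leading genes held no marker of the list. The naming conditions were revised after cluster tables were seen. Sub-clusters were made within the endothelial-like, the macrophage/monocyte-like and the FAP-like class, and those that failed the naming conditions were taken out (2 of 11 in the endothelial-like and 2 of 11 in the FAP-like class). Repeated gene symbols were summed.

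Levels carry exact Poisson intervals and ratios exact intervals of 2 counts conditional on their sum; shares carry exact binomial intervals. They cover counting error only, and with 1 library per group no p-value is given. Total depth of the kept cells was 186865507 UMIs in the young library, 155619961 in the saline-treated old one and 199115857 in the METRNL-treated one. The ratio procedure was tested on simulated data. The 10 genes and all lists were chosen with earlier results of these data known. The text names all 10 genes, the 3 genes of each list with the most UMIs in the class and the 3 genes most alike by Pearson's r of log2(level + 1) among genes with at least 1000 UMIs. The genes most alike to Nrp1 are not reported here. The other list genes named and the sub-clusters given were chosen after their values were seen. Alternatives covered cell filters, doublets, clustering, scaling, depth, gating and thresholds. Gene positions are from GENCODE M21 (mm10).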

Additional observations from a re-analysis of the deposited data

Results flagged for a closer look

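Some genes were past 1.5-fold in opposite directions in different classes under the same contrast. None of these differences between classes was tested, since each group is 1 library.

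For age, Vegfa was higher in old PBS in endothelial-like cells (ratio 1.98) and lower in MuSC/myoblast-like (0.59) and T/NK-like cells (0.34). For treatment it was lower in old rMETRNL in endothelial-like cells (0.56) and higher in MuSC/myoblast-like (1.89) and T/NK-like cells (2.41). The thinned shares of MuSC/myoblast-like cells with a Vegfa UMI had overlapping intervals. Kdr was higher in old PBS in FAP-like cells (1.89) and lower in macrophage/monocyte-like (0.55) and dendritic-like cells (0.34), and for treatment it was higher in dendritic-like (2.08) and lower in FAP-like cells (0.64). The FAP-like values rest on 38 to 48 UMIs per library, with thinned shares of cells that did not exceed those of T/NK-like cells beyond counting error. Flt1 was higher in old PBS in endothelial-like cells (1.63) and lower in pericyte/smooth muscle-like cells (0.64). The former was 1.21 with the sub-cluster mix held fixed, and the latter turned to 1.14 at resolution 1.6 and 1.07 in cells gated by marker UMIs, where the directions are no longer opposite. Angpt1 was higher in old PBS in MuSC/myoblast-like cells (2.12) and lower in macrophage/monocyte-like cells (0.51), the latter from 33 UMIs in young PBS and 17 in old PBS.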

How the results depend on the processing

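No paired analysis was possible because each group holds 1 library, so the groups share 1 replicate number and no test was made. Main counts of genes past 1.5-fold for age and for treatment were 2 and 2 in endothelial-like, 3 and 1 in FAP-like, 3 and 2 in macrophage/monocyte-like and 1 and 1 in pericyte/smooth muscle-like cells. At 2-fold they were 0 and 0, 1 and 0, 1 and 1, and 0 and 1. With the sub-cluster mix held fixed, they were 0 and 0 in endothelial-like cells and 0 for treatment in FAP-like cells; this setting, the removal of shared barcodes and the removal of a Siglech or a Spp1 and Col3a1 sub-cluster were chosen after seeing the data. The mean of per-cell levels gave 5 and 0 in endothelial-like cells and 2 for age in pericyte/smooth muscle-like cells, and median-of-ratios scaling gave 4 for age in endothelial-like and 2 for age in pericyte/smooth muscle-like cells. The treatment count in FAP-like cells was 0 at resolution 0.4, at resolution 1.6 and without shared barcodes, and 2 under the stricter cell filter. The treatment count in pericyte/smooth muscle-like cells was 0 at resolution 1.6 and 2 under the stricter filter. It was 1 in endothelial-like cells with the pathway genes kept in clustering, and 1 in macrophage/monocyte-like cells with at least 2000 UMIs.

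Of the ratios of single genes past 1.5-fold, 3 turned direction, all Flt1 in pericyte/smooth muscle-like cells: 1.14 for age and 1.06 for treatment at resolution 1.6, and 1.07 for age in cells gated by marker UMIs. The cause was not tested. Of the ratios short of 1.5-fold whose interval left out 1, 7 crossed to the other side of 1. For age these were Angpt2 in endothelial-like cells (0.78, and 1.05 under the stricter filter), Vegfa in macrophage/monocyte-like (1.075, and 0.79 at a fixed mix), Nrp1 in macrophage/monocyte-like (1.06, and 0.98 under the looser filter) and Flt1 in FAP-like cells (1.31, and 0.93 at a fixed mix). For treatment they were Kdr and Nrp1 in endothelial-like cells at a fixed mix (0.815 to 1.015 and 0.85 to 1.04) and Angpt2 in macrophage/monocyte-like cells under the looser filter (1.13 to 0.88). Apart from those 3 Flt1 ratios, 716 ratios under alternatives stayed within the main counting interval and 79 moved outside it without turning a called direction. Shares of cells with a UMI were less stable, with 189 marked as moved and 3 as the same. The class with the highest level moved in 2 cases and stayed in 58. Under the alternative cell filters and with doublets kept, some macrophage or myoblast clusters went unnamed and left their class. Levels under 1 CPM are limited by depth.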

Other observations

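Other classes held members of the set that the sections above leave out. In MuSC/myoblast-like cells Nrp1 stood at 54.2 CPM for young PBS, 77.9 for old PBS and 68.8 for old rMETRNL, with an old/young ratio of 1.44 (1.285 to 1.604), and Angpt1 at 3.64, 7.73 and 5.06 from 58, 51 and 74 UMIs. Vegfc stood there at 4.96, 8.03 and 6.63, with an old/young ratio of 1.62 (1.12 to 2.32). In FAP-like cells Vegfd, a ligand of VEGFR3, was at 31.3, 31.9 and 44.1, with an rMETRNL/PBS ratio of 1.38 (1.28 to 1.496), and Sema3c, a ligand of neuropilins, was at 71.1, 124 and 121.5, with an old/young ratio of 1.745 (1.66 to 1.83). Sema3c is a leading gene of the FAP-like sub-cluster led by Dmkn, which made up 8.18%, 11.9% and 14.45% of the class, and its ratio with the mix held fixed was not computed. In tenocyte-like cells Flt1 was at 3.48, 5.85 and 10.45, from 16, 12 and 42 UMIs.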
